A study of Mus musculus with 10 samples.

Results

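The WNT genes described here are the secreted WNT ligands, their Frizzled and LRP receptors, the R-spondin agonists, the secreted antagonists of the Dickkopf and secreted Frizzled-related families, and a few genes of ligand processing and pathway output. They were chosen by gene symbol (the Wnt, Fzd, Dkk, Sfrp and Rspo families with Wif1, Frzb, Lrp5, Lrp6, Axin2, Lef1, Tcf7 and Porcn). The symbol rule itself uses no measured value, but it was proposed with earlier results of these data known. A total of 50 genes fitted the rule, and 49 of them were among the 18193 genes tested. Tcf7 had no probe set with a single gene symbol and was not analysed here. RNA came from carcinoma-associated fibroblasts (CAF), the fibroblasts that live in a tumour, and from normal lung fibroblasts, with 5 Affymetrix Mouse430_2 arrays in each group. Cells of both groups came from mouse lungs and had been through 10 to 14 days of culture in 10% serum, then a night on new dishes, when RNA was taken. By their titles the arrays of each group are biological replicates. Strain, genotype, age, sex and the tumour that gave the CAF are not given in the sources used here, nor whether each array is a separate animal, so p-values measure the spread between these cultures. Codes in the labels begin with ls on all CAF arrays and on normal replicates 4 and 5, and with vs on normal replicates 1 to 3. What the prefixes stand for is not given, so named differences that move over 1.5 times with the prefix are also given against each kind of normal array.

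WNT proteins are lipid-modified signals that bind a Frizzled receptor. With the co-receptors Lrp5 or Lrp6 they keep beta-catenin from being degraded, so that it enters the nucleus and works with TCF and LEF factors, and through other co-receptors they act on cell polarity and calcium. R-spondins keep Frizzled receptors at the cell surface, Dickkopf proteins bind the LRP co-receptors, and secreted Frizzled-related proteins bind WNT ligands outside the cell. In the lung, WNT signals between epithelium and mesenchyme guide development and repair.

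All values are log2 expression after robust multi-array averaging (RMA) by the authors, so a step of 1 is a 2-fold change. The median and the SD over probe sets did not overlap between the groups, with medians of 6.73 to 6.74 on CAF and 6.76 to 6.80 on normal arrays and the larger SDs on CAF arrays. The mean level of 12 fibroblast markers, led by Acta2, Col1a2 and Vim, was 12.27 to 13.75 on CAF and 12.43 to 14.12 on normal arrays. Markers of other cell types were also read. The mean of 14 macrophage markers ran from 10.31 to 12.49 on CAF and from 9.44 to 12.48 on normal arrays, with Lyz2, Tyrobp and C1qb the brightest. The mean of 7 mesothelial markers ran from 7.30 to 9.43 on CAF and from 6.27 to 10.33 on normal arrays, with Upk1b, Upk3b and Wt1 the brightest. The lists of epithelium (13 genes, led by Krt18, Krt8 and Epcam, 6.40 to 7.20 on CAF and 6.69 to 7.46 on normal arrays) and endothelium (10 genes, led by Flt1, Egfl7 and Kdr, 6.53 to 6.81 on CAF and 6.59 to 6.66 on normal arrays) overlapped between the groups. The pericyte and vascular smooth muscle list (8 genes, led by Cnn1, Des and Myh11) read 9.42 to 9.87 on CAF and 8.81 to 9.50 on normal arrays. Of its 8 CAF minus normal differences 7 were positive and 1 negative. They ran from -0.25 (Notch3) to 1.32 ± 0.28 (Kcnj8, SE, limma adjusted p = 0.0589). All 14 macrophage markers and 4 of the 7 mesothelial markers had a mean at or above the median gene. This held for 2 of 13 epithelial and 2 of 10 endothelial markers. How much of the RNA came from cells other than fibroblasts was not measured. No marker of these 6 lists passed the limma test.

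The question was which WNT genes are expressed at another level in CAF than in normal lung fibroblasts once both are grown in culture. Of the 49 WNT genes, 1 rose in CAF, the antagonist gene Dkk2, 0 fell and 48 did not pass (limma, adjusted over all genes, threshold 0.05). Over all genes 0.753% were called, 0.561% higher and 0.192% lower. These are 102 higher and 35 lower genes, a balance that depends on the scaling, with 41 higher and 49 lower among the 90 called when the arrays were quantile-normalised. The 3 largest differences were in secreted regulators. Dkk2 was 5.43-fold higher in CAF. The mean of Frzb was 4.48-fold higher in CAF and that of Rspo1 5.00-fold higher in normal fibroblasts, and neither of these passed the test. A total of 5 WNT genes (10.2%) differed by at least 2-fold in their means, with no test, these 3 and Wnt4 and Fzd6, whose means were lower in CAF; over all genes this share was 2.20%. At an unadjusted p under 0.05 limma had 3 higher and 10 lower WNT genes (26.5% in all), against 10.5% of all genes higher and 11.8% lower (22.3% in all). The values of the 5 CAF arrays and the 5 normal arrays did not overlap for 5 WNT genes (10.2%), Dkk2 higher and Wnt7b, Wnt10b, Wnt3a and Sfrp5 lower, against 2.97% of all genes higher and 4.19% lower (7.16% in all). All 4 lower genes had a mean below the median gene. Of the 32 WNT genes there 12.5% were lower with no overlap, against 6.66% of all genes below the median. The median log2 difference was -0.11 over the WNT genes and -0.04 over all genes.

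**Figure D1:**
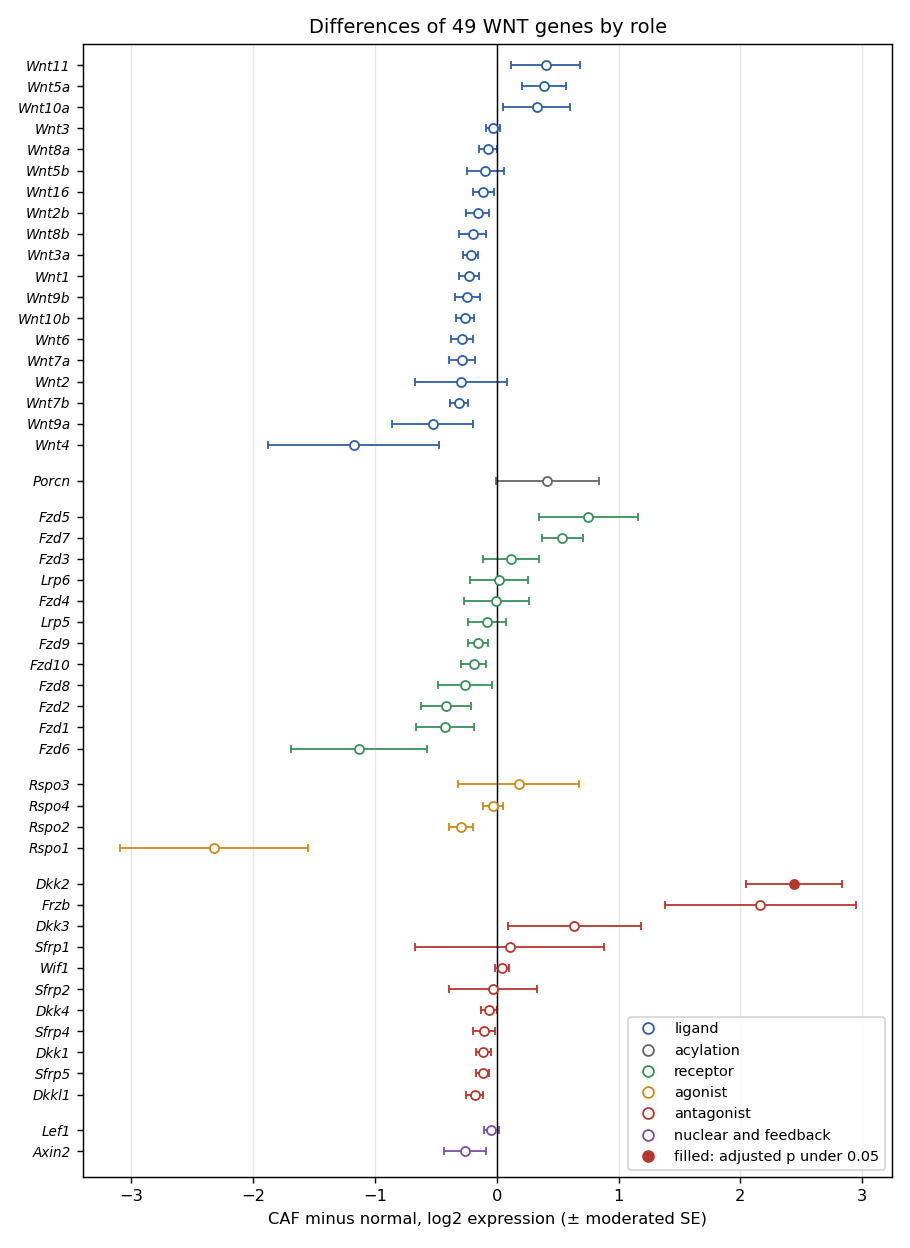
CAF minus normal difference in log2 expression for each of the 49 WNT genes (points) with the moderated standard error (bars), grouped by role and ordered by size. The filled point, Dkk2 at 2.44, is the gene that passed the test, and Frzb and Rspo1 stand at 2.16 and -2.32 with wider bars.

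The promoters of the 3 genes with the largest differences are shown because all of them encode secreted regulators of WNT signalling. They are taken from RefSeq on GRCm38.p6, 250 bases before to 50 bases after the annotated start, on the strand of the gene. Of the 49 WNT genes, 32 matched the promoter table by symbol, with 38 promoters. Capitals mark matches to any of 3 motifs searched on both strands: the TCF/LEF letters CTTTG followed by AA, AT, TA or TT, the AP-1 letters TGANTCA and the TATA box letters TATAAA.
Dkk2, chr3:132085042-132085341, plus strand: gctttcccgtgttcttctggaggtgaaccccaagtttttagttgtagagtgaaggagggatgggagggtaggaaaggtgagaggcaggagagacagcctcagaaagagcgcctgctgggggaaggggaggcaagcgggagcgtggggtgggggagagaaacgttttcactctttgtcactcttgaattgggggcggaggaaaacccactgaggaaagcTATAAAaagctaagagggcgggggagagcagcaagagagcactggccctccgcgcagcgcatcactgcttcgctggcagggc
Frzb, chr2:80447347-80447646, minus strand: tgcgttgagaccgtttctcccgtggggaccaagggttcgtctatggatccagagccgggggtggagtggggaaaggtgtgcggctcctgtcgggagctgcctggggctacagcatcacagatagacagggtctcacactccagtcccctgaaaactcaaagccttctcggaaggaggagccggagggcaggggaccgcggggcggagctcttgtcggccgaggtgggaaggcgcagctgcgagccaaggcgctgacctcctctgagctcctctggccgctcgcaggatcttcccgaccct
Rspo1, chr4:124986180-124986479, plus strand: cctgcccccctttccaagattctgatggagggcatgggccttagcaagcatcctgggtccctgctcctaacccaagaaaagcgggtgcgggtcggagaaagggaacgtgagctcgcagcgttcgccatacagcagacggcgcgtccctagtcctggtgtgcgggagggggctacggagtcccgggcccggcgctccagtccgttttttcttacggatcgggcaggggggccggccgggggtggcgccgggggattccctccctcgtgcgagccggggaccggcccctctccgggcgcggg
The Dkk2 window holds a TATA box match that begins at base 219 of the 300, and the windows of Frzb and Rspo1 hold no match to these letters. Among all 32841 promoters of this length, 16.9% hold the TCF/LEF letters, 7.81% the AP-1 letters and 13.6% the TATA letters. Among the 38 promoters of WNT genes, 6 (15.8%) hold TCF/LEF letters, 1 (2.63%) AP-1 letters and 6 (15.8%) TATA letters. The GC content is 57.7% in the Dkk2, 64.7% in the Frzb and 69.0% in the Rspo1 window, against a median of 67.0% over the WNT promoters and 52.7% over all promoters. A match is a description of the letters and not of binding.

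Of 19 WNT ligand genes measured, 0 passed the limma test over all genes, 7 had an unadjusted p under 0.05, all of them lower in CAF, and 16 of the 19 differences were negative, with a median of -0.21. Over all genes 57.3% of differences were negative and 11.8% were lower at an unadjusted p under 0.05. Among genes below the median level, where 15 of the 19 ligands lie, these shares were 75.1% and 18.7%. For all but 1 of these 7 ligands the mean level lay in the lower part of the array, below the median gene level of 8.11, where small negative differences were common over all genes.

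Wnt7b, a ligand known from lung epithelium, read 7.84, 8.01, 8.09, 7.84 and 7.94 on CAF replicates 1 to 5, against 8.34, 8.33, 8.20, 8.30 and 8.12 on normal replicates 1 to 5. Every CAF value lay below every normal value. The difference was -0.31 ± 0.07 (SE, limma adjusted p = 0.0686), and the dimmer probe set of Wnt7b had -0.13 ± 0.09. Wnt10b, a ligand of the beta-catenin branch, read 7.28, 7.41, 7.32, 7.26 and 7.29 on CAF arrays, against 7.52, 7.80, 7.47, 7.52 and 7.55 on normal arrays. The groups did not overlap, and normal replicate 2 stood above the other normal arrays. The difference was -0.26 ± 0.07 (adjusted p = 0.0933). Wnt3a, the ligand most used to switch on beta-catenin signalling in culture, read 6.85, 6.85, 6.76, 6.90 and 6.72 on CAF arrays, against 6.97, 7.12, 7.05, 7.06 and 6.94 on normal arrays. These groups did not overlap either, with a difference of -0.21 ± 0.06 (adjusted p = 0.0938).

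Wnt6 read 7.35, 7.51, 7.70, 7.46 and 7.52 on CAF arrays, against 7.72, 7.88, 8.02, 7.69 and 7.66 on normal arrays. Only CAF replicate 3 reached into the normal range, and the difference was -0.29 ± 0.09 (adjusted p = 0.123), with -0.17 against ls and -0.36 against vs normal arrays. Its other probe set, of the _x_at kind that may bind further transcripts, had 0.09 ± 0.08. Wnt1, the founding ligand of the family, read 5.29, 5.33, 5.42, 5.37 and 5.26 on CAF arrays, against 5.79, 5.63, 5.44, 5.40 and 5.55 on normal arrays (difference -0.23 ± 0.08, adjusted p = 0.147), with -0.14 against ls and -0.28 against vs normal arrays. Wnt7a read 8.23, 8.35, 8.35, 8.24 and 7.95 on CAF arrays, against 8.53, 8.69, 8.32, 8.38 and 8.64 on normal arrays (-0.29 ± 0.10, adjusted p = 0.150), and by dimmer probe sets the difference was -0.22 ± 0.07 and 0.04 ± 0.09. In both genes 1 normal array fell within the CAF range. Wnt9b, known in the mouse from kidney development, read 6.62, 6.77, 6.87, 6.72 and 6.55 on CAF arrays, against 6.93, 7.17, 6.75, 6.80 and 7.10 on normal arrays (-0.24 ± 0.10, adjusted p = 0.193). The groups overlapped in this probe set but not in the dimmer Wnt9b probe set, which had -0.16 ± 0.06.

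Wnt4, a ligand known from the kidney and the female reproductive tract, showed the widest spread of any ligand. It read 9.10, 9.58, 8.11, 8.26 and 9.54 on CAF arrays, against 11.30, 7.56, 11.54, 10.12 and 9.92 on normal arrays. All normal arrays but replicate 2 lay above all CAF arrays, while normal replicate 2 lay below them. The mean was 8.92 ± 0.70 over the CAF and 10.09 ± 1.58 over the normal arrays (SD, n = 5 each), the difference was -1.17 ± 0.70 (adjusted p = 0.346), and it was -1.81 without normal replicate 2. The dimmer Wnt4 probe set had -1.11 ± 0.46.

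Wnt5a and Wnt11, ligands best known for signalling without beta-catenin, had positive differences. Wnt5a read 8.49, 9.04, 9.32, 8.57 and 9.18 on CAF arrays, against 8.35, 8.29, 8.63, 8.83 and 8.58 on normal arrays. CAF replicates 2, 3 and 5 lay above all normal arrays and CAF replicates 1 and 4 within their range. The difference was 0.39 ± 0.18 (adjusted p = 0.241), with 0.21 against ls and 0.50 against vs normal arrays, and 2 of the 3 dimmer probe sets had 0.38 ± 0.15 and 0.40 ± 0.21, while the dimmest had -0.25 ± 0.07. Wnt11 read 9.58, 9.73, 9.65, 9.53 and 10.17 on CAF arrays, against 10.14, 8.48, 9.29, 9.03 and 9.71 on normal arrays (0.40 ± 0.28, adjusted p = 0.421). Its difference was 0.60 without normal replicate 1 and 0.19 without normal replicate 2. The remaining 9 ligands had differences between -0.53 (Wnt9a) and 0.33 (Wnt10a), with adjusted p-values of 0.324 or higher.

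Porcn, the enzyme that attaches the lipid to WNT ligands, read 7.78, 7.06, 8.29, 7.72 and 8.10 on CAF arrays, against 7.86, 8.78, 6.67, 6.68 and 6.88 on normal arrays. Normal replicates 3 to 5 lay below all CAF arrays, normal replicate 2 lay above them and replicate 1 among them. The difference was 0.41 ± 0.42 (adjusted p = 0.585); it was 1.01 against ls and 0.02 against vs normal arrays, 0.76 without normal replicate 2 and 0.24 without normal replicate 3 or 4.

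Among the receptors, 0 of 12 genes passed the limma test, 1 (Fzd7, 8.33%) had an unadjusted p under 0.05, against 22.3% of all genes, and the median difference was -0.12. Fzd7, a receptor of beta-catenin signalling, read 11.38, 11.40, 11.85, 11.76 and 11.75 on CAF arrays, against 11.12, 11.61, 10.75, 10.79 and 11.16 on normal arrays. All CAF arrays exceeded all normal arrays but replicate 2. The difference was 0.54 ± 0.17 (1.45-fold, adjusted p = 0.121), it was 0.65 against ls and 0.47 against vs normal arrays, and the dimmer probe set had 0.33 ± 0.13.

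Fzd6, a receptor of the planar polarity branch that patterns hair in the mouse, read 8.16, 9.47, 8.33, 7.14 and 9.12 on CAF arrays, against 10.65, 8.03, 9.73, 9.17 and 10.28 on normal arrays. The groups overlapped through normal replicates 2 and 4. The difference was -1.13 ± 0.56 (adjusted p = 0.263), and both dimmer probe sets were negative, at -0.70 ± 0.32 and -0.22 ± 0.07. Fzd1 read 11.91, 12.13, 11.53, 12.26 and 11.83 on CAF arrays, against 12.30, 13.06, 12.49, 12.32 and 11.62 on normal arrays. All normal arrays but replicate 5 lay above the CAF arrays, with a difference of -0.42 ± 0.24 (adjusted p = 0.325) that was -0.04 against ls and -0.68 against vs normal arrays, and -0.25 without normal replicate 2. Fzd2 read 10.94, 11.03, 10.99, 11.18 and 10.77 on CAF arrays, against 11.09, 12.21, 11.15, 11.12 and 11.44 on normal arrays. Its 3 probe sets had -0.42 ± 0.21, -0.35 ± 0.20 and -0.31 ± 0.16 (adjusted p = 0.262 for the first). The difference of the brightest was -0.30 against ls and -0.50 against vs normal arrays, and -0.22 without normal replicate 2.

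The co-receptor genes Lrp5 and Lrp6 had small mean differences. Lrp6 read 10.34, 9.85, 9.79, 10.06 and 10.19 on CAF arrays, against 10.47, 10.71, 9.46, 9.68 and 9.80 on normal arrays (0.02 ± 0.24, adjusted p = 0.969), and its dimmer probe set had 0.33 ± 0.13. Lrp5 read 6.16, 5.86, 5.95, 5.77 and 6.04 on CAF arrays, against 6.54, 6.15, 5.89, 5.66 and 5.92 on normal arrays (-0.08 ± 0.15, adjusted p = 0.790). The sign of either difference depended on the arrays used. Set against the ls normal arrays, Lrp6 had 0.30 and Lrp5 0.16. Set against the vs normal arrays, they had -0.17 and -0.24. The other 6 Frizzled genes had differences between -0.26 (Fzd8) and 0.75 (Fzd5), with adjusted p-values of 0.302 or higher. The SD was larger in the normal group for 11 of the 12 receptor genes, for 31 of the 49 WNT genes (63.3%) and for 71.1% of all genes.

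The R-spondin gene Rspo1 had the lowest difference of the WNT genes. It read 5.88, 5.85, 6.36, 5.84 and 6.67 on CAF arrays, against 11.43, 8.01, 7.88, 6.32 and 8.57 on normal arrays. Normal replicate 1 was far above the others, normal replicate 4 lay inside the CAF range, and the 5 CAF arrays lay close together. The mean was 6.12 ± 0.37 over the CAF and 8.44 ± 1.87 over the normal arrays (SD, n = 5 each), a difference of -2.32 ± 0.77 (adjusted p = 0.129). It was -1.57 without normal replicate 1, -1.32 against ls and -2.99 against vs normal arrays. All CAF values of Rspo1 lay below the median gene level of 8.11 and may be at background. Rspo1 is read by 1 probe set.

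Rspo3, an R-spondin that also guides vessel growth, read 11.59, 11.05, 12.33, 12.05 and 10.73 on CAF arrays, against 11.93, 12.93, 10.63, 10.66 and 10.72 on normal arrays. Normal replicates 3 to 5 lay below all CAF arrays and normal replicate 2 above them, so that the mean difference was 0.18 ± 0.50 (adjusted p = 0.856), with 0.86 against ls and -0.28 against vs normal arrays. Rspo2, which is needed for limb and lung growth in the mouse, read 7.26, 7.51, 7.56, 7.23 and 7.22 on CAF arrays, against 7.42, 7.61, 7.68, 7.83 and 7.72 on normal arrays (-0.29 ± 0.10, adjusted p = 0.135), with -0.42 against ls and -0.21 against vs normal arrays. Its dimmer probe set had the opposite sign, 0.55 ± 0.78. Rspo4 had -0.03 ± 0.08.

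Of 11 secreted antagonist genes, 1 rose (Dkk2, 9.09%), 0 fell and 10 did not pass, beside 0.753% called over all genes. Dkk2 binds Lrp6 and can either block or promote signalling, depending on the other proteins at the membrane. It read 8.08, 8.66, 9.82, 8.02 and 9.10 on CAF arrays, against 5.99, 6.64, 5.66, 6.02 and 7.17 on normal arrays. Every CAF array stood above every normal array. All normal values lay below the median gene level of 8.11 and may be at background. The mean was 8.74 ± 0.75 over the CAF and 6.29 ± 0.60 over the normal arrays (SD, n = 5 each), a difference of 2.44 ± 0.39 (limma adjusted p = 0.0409), with 2.14 against ls and 2.64 against vs normal arrays. The call lies close to the threshold. Without CAF replicate 1, 3, 4 or 5 the adjusted p was 0.0726, 0.0929, 0.0804 and 0.143, and without normal replicate 1, 3 or 4 it was 0.0722, 0.0723 and 0.0724, with differences of 2.17 to 2.62 in these fits. With the label prefix as a term the difference was 2.14 and the adjusted p 0.306. As all CAF arrays are ls, this difference is the one against the 2 ls normal arrays and not a separate estimate. The exact permutation test (2-sided) gave p = 0.00794, the smallest that 5 against 5 arrays can give, which is 0.111 after adjustment over all genes. Dkk2 is read by 1 probe set. Within the normal group Dkk2 was lowest on replicate 3 and highest on replicate 5. The pericyte and vascular smooth muscle list was too, at 8.81 and 9.50. Normal replicate 2 read 6.64 with a list mean of 9.12, and normal replicate 1 read 5.99 with 9.31. Within CAF both Dkk2 and the list were higher on replicates 3 and 5, where the list read 9.73 and 9.87, than on the other arrays. Both were lowest on replicates 1 and 4, where the list read 9.42 and 9.56. Dkk2 was highest on replicate 3 and the list on replicate 5. This list was set beside Dkk2 with the values in view. The part of these markers in the Dkk2 difference was not tested. In these bulk cultures a change in the number of cells that make an RNA cannot be told apart from a change in its amount per cell.

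**Figure D2:**
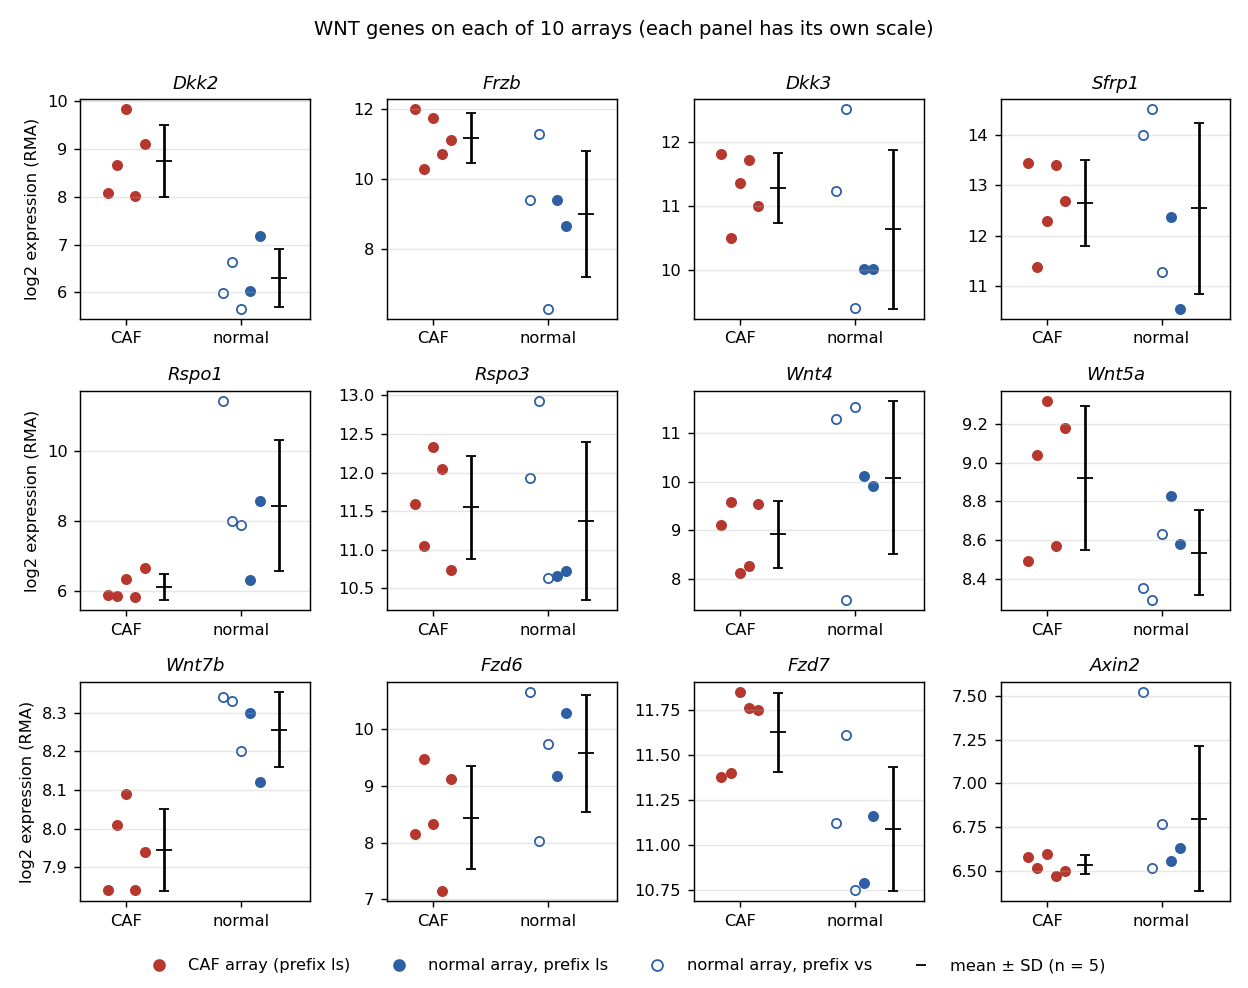
Log2 expression (RMA) of 12 WNT genes on each array, CAF on the left and normal fibroblasts on the right of each panel, with normal arrays split by label prefix (filled ls, open vs) and the mean ± SD beside them. The CAF and normal values are apart for Dkk2 and Wnt7b, Rspo1 is tight in CAF and wide in normal fibroblasts, and Sfrp1, Rspo3 and Dkk3 spread more widely in the normal group than in CAF.

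Frzb, a secreted Frizzled-related protein known from cartilage, read 11.99, 10.30, 11.75, 10.73 and 11.12 on CAF arrays, against 9.40, 11.29, 6.31, 9.40 and 8.67 on normal arrays. All normal arrays but replicate 2 lay below all CAF arrays, and normal replicate 3 was the lowest. The mean was 11.18 ± 0.70 over the CAF and 9.01 ± 1.79 over the normal arrays (SD, n = 5 each), a difference of 2.16 ± 0.78 (adjusted p = 0.151). The 2 probe sets gave like values, 2.16 and 2.26, and the difference was 2.15 against ls and 2.18 against vs normal arrays. It was 1.49 without normal replicate 3 and 2.73 without normal replicate 2, where the adjusted p was 0.0695.

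Dkk3, a Dickkopf relative that does not act through the LRP co-receptors in the usual way, read 11.81, 10.50, 11.36, 11.71 and 11.00 on CAF arrays, against 11.24, 12.50, 9.42, 10.02 and 10.02 on normal arrays. The difference was 0.64 ± 0.55 (adjusted p = 0.515), with 1.26 against ls and 0.22 against vs normal arrays. It was 1.10 without normal replicate 2 and 0.33 without normal replicate 3. Sfrp1, which binds WNT ligands, read 13.45, 11.38, 12.30, 13.41 and 12.70 on CAF arrays, against 14.00, 14.51, 11.28, 12.37 and 10.55 on normal arrays. Normal replicates 1 and 2 lay above every CAF array and normal replicates 3 and 5 below every CAF array. Its 5 probe sets had differences between -0.30 and 0.10, and the brightest had 0.10 ± 0.77 (adjusted p = 0.948), with 1.19 against ls and -0.62 against vs normal arrays.

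Sfrp5, another member of that family, read 7.33, 7.35, 7.29, 7.30 and 7.35 on CAF arrays, against 7.36, 7.54, 7.40, 7.46 and 7.45 on normal arrays. The groups did not overlap, though CAF replicates 2 and 5 lay just below normal replicate 1, with a difference of -0.12 ± 0.05 (adjusted p = 0.229). In its dimmer probe set, with -0.29 ± 0.12, the groups overlapped, as they did in the dimmer probe set of Wnt7b. Dkkl1, a Dkk3-like gene of developing sperm, read 6.52, 6.45, 6.32, 6.61 and 6.51 on CAF arrays, against 6.80, 6.71, 6.62, 6.55 and 6.63 on normal arrays (-0.18 ± 0.07, adjusted p = 0.180), with -0.11 against ls and -0.23 against vs normal arrays. Dkk1, Dkk4, Sfrp2, Sfrp4 and Wif1 had differences between -0.11 and 0.04, with adjusted p-values of 0.337 or higher. Of the 5 Dkk genes Dkk2 was the only one called, and 3 of the 5 differences (60.0%) were negative, against 57.3% of all genes.

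The nuclear and feedback genes report on beta-catenin output. Both measured genes had means below the median gene level of 8.11, 6.67 for Axin2 and 6.29 for Lef1, and may be at background. Axin2, a scaffold that degrades beta-catenin and is itself switched on by it, read 6.58, 6.52, 6.60, 6.47 and 6.50 on CAF arrays, against 7.52, 6.52, 6.77, 6.56 and 6.63 on normal arrays. Normal replicate 1 stood alone, and the others lay close to the CAF arrays. The difference was -0.26 ± 0.17 (adjusted p = 0.396), and it was -0.08 without that array, -0.05 against ls and -0.40 against vs normal arrays. The dimmer Axin2 probe set had -0.06 ± 0.07. Lef1, the DNA-binding partner of beta-catenin, read 6.27, 6.39, 6.27, 6.20 and 6.20 on CAF arrays, against 6.43, 6.25, 6.28, 6.28 and 6.31 on normal arrays (-0.05 ± 0.06, adjusted p = 0.681), with -0.03 against ls and -0.06 against vs normal arrays and values of -0.08 to -0.02 without 1 array. The dimmer Lef1 probe set had -0.05 ± 0.08.

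Small negative differences were common over the whole array at low levels. When all genes were ranked by mean level and divided into 10 bins of equal size, the median difference lay between -0.13 and -0.05 in the 5 lower bins and between 0.03 and 0.12 in the 5 upper bins. A total of 32 of the 49 WNT genes had a mean below the median gene. Of these 27 (84.4%) had a negative difference, with a median of -0.14, against 75.1% and -0.09 for all genes below the median. Of the 17 WNT genes at or above it, 8 (47.1%) were negative, with a median of 0.02, against 39.4% and 0.08 for all genes there. With the arrays quantile-normalised once more, the medians of the 5 lower bins lay between -0.14 and -0.0074 and those of the 5 upper bins between -0.093 and 0.036. Wnt7b then had -0.42, Wnt10b -0.29 and Wnt3a -0.19, and Dkk2 had 2.40 with an adjusted p of 0.0438. The part of this shift in the differences of the dim ligands was not tested.

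**Figure D3:**
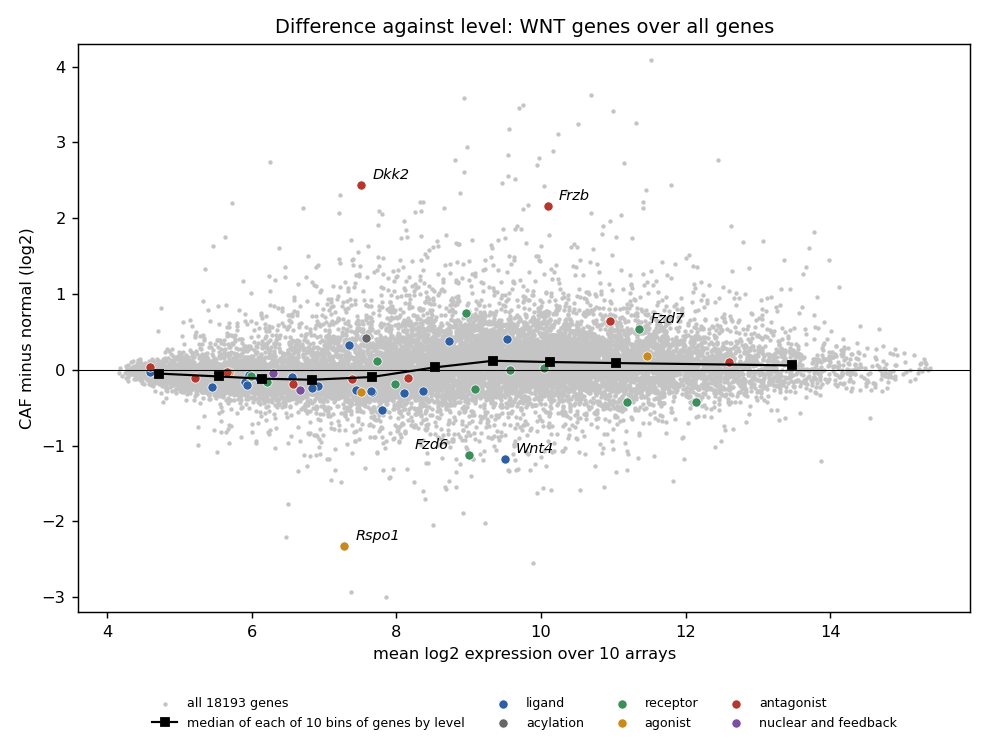
CAF minus normal difference (log2) against mean log2 expression over the 10 arrays for all 18193 genes (grey), the median of each of 10 bins of genes by level (black squares) and the WNT genes coloured by role. Most ligands lie below a level of 8.11, where the bin medians are -0.13 to -0.05, while Dkk2, Frzb, Rspo1, Wnt4 and Fzd6 lie at least 1 unit from 0.

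Some WNT genes, picked with their values in view, were high or low on the same arrays as a marker list. On normal replicate 2, the mesothelial list was at its lowest, 6.27, and so were Wnt4 (7.56) and, within the normal group, Fzd6 (8.03). On normal replicate 1 that list was at its highest, 10.33, and Rspo1 (11.43) and Fzd6 (10.65) were too. Within CAF, Wnt4 and Fzd6 were highest on replicates 2 and 5, where the mesothelial list read 9.43 and 9.29, and lower on replicates 1, 3 and 4, where it read 8.04, 8.37 and 7.30. Fzd6 kept the order of the list in both groups, and Wnt4 only in part. Wnt4 read 11.54 on normal replicate 3 (list mean 9.70) and 11.30 on normal replicate 1. It read 9.10 on CAF replicate 1 and 8.11 on CAF replicate 3. Rspo1 did not share the order on the remaining arrays. It read 8.01 on normal replicate 2 and 6.32 on normal replicate 4, with a list mean of 8.72. Of the 7 mesothelial markers 6 had negative differences, the largest Lrrn4 with -2.99 ± 1.15, and Calb2 had 1.72 ± 0.41 (adjusted p = 0.170 and 0.0723). The part of these markers in the differences of Wnt4, Fzd6 and Rspo1 was not tested.

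Sfrp1, Rspo3, Dkk3, Lrp6 and Porcn, picked with their values in view, shared another order. Each was at its highest of all 10 arrays on normal replicate 2. Among the other normal arrays each was highest on replicate 1. Fzd8, outside the naming rule, had this order too, with 9.99 and 9.45 on these arrays. Normal replicate 2 also had the highest mean of the fibroblast markers, 14.12, and the lowest mean of the macrophage markers, 9.44. Normal replicate 1, however, had 12.94 for fibroblast and 12.48 for macrophage markers. The part of these markers in the differences of these genes was not tested.

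**Figure D4:**
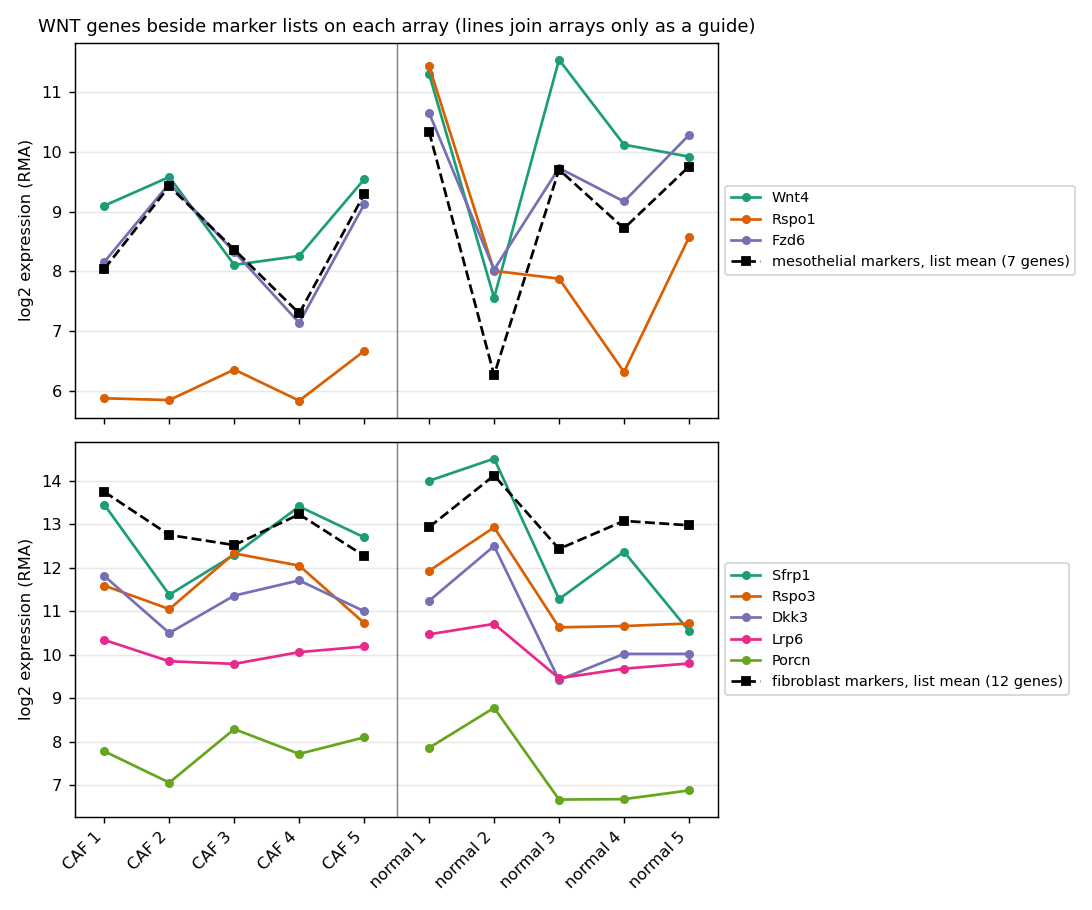
Log2 expression (RMA) on each CAF and normal array of Wnt4, Rspo1 and Fzd6 with the mean of 7 mesothelial markers (upper panel), and of Sfrp1, Rspo3, Dkk3, Lrp6 and Porcn with the mean of 12 fibroblast markers (lower panel). Wnt4, Fzd6 and the mesothelial mean are all low on normal replicate 2, where the 5 genes of the lower panel are at their highest.

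Other genes of the pathway were read from 5 lists, with 100 of 104 genes measured. Limma called 0 of these 100 genes, with 12 higher and 10 lower at an unadjusted p under 0.05 (22.0%, against 22.3% of all genes) and a median difference of 0.03. The groups did not overlap for 8 of the 100, against 7.16% of all genes. At the membrane (14 genes, 0 called, median 0.09), Lgr4, a receptor for R-spondins, read 9.63, 9.52, 9.76, 10.05 and 9.79 on CAF arrays, against 8.83, 9.30, 8.92, 9.08 and 9.41 on normal arrays. The groups did not overlap and the difference was 0.64 ± 0.14 (adjusted p = 0.0603). Tspan12, a Frizzled-4 partner, had 0.67 ± 0.19 and Ryk, a WNT co-receptor, -0.25 ± 0.08 (adjusted p = 0.0998 and 0.108).

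Inside the cell (31 genes, 0 called, median 0.04), Nlk, a kinase that restrains TCF factors, had 0.80 ± 0.18, and Apc, a scaffold of beta-catenin breakdown, 0.75 ± 0.17, both with no overlap between groups (adjusted p = 0.0659 and 0.0683). Without normal replicate 2, Nlk was called, with 0.64 ± 0.12 and an adjusted p of 0.0499. Frat1, an inhibitor of the kinase Gsk3, had -0.22 ± 0.06 (adjusted p = 0.0969). Among 28 targets of the pathway (0 called, median 0.02), the adhesion receptor Cd44 had 0.85 ± 0.23 (adjusted p = 0.0887). The transcription factor Irx3 had 0.78 ± 0.27 and the feedback inhibitor Nkd1 -0.49 ± 0.18 (adjusted p = 0.142 and 0.158). Nkd2, the relative of Nkd1 and outside the naming rule, had 1.16 ± 0.62 (adjusted p = 0.299). Among 9 genes of ligand release and binding (0 called, median -0.11), the glypican Gpc3 had -2.02 ± 0.75, its relative Gpc4 0.89 ± 0.43 and the secreted protein Cthrc1 -1.59 ± 0.90 (adjusted p = 0.158, 0.254 and 0.324). Gpc3 and Cthrc1 were lowest of the normal arrays on replicate 2, at 7.64 and 8.03. Of the polarity and calcium branch (24 genes, 0 called, median 0.03), the transcription factors Nfatc3 and Nfatc1 had 0.17 ± 0.06 and 0.35 ± 0.16, and the cadherin Celsr2 had -0.17 ± 0.06 (adjusted p = 0.174, 0.237 and 0.174).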

How the data were processed

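The values deposited by the authors are on a log2 scale and were made with RMA in Affymetrix Expression Console per the submitters' processing notes, which also name limma. Without detection calls a dim gene may be at background, and precision is limited by the 5 arrays per group. Groups and replicate numbers came from the titles. Of 45101 probe sets, 64 controls were left out and 34945 had a single gene symbol. Symbols were updated through Entrez numbers to the gene table of GRCm38.p6. Each gene was read by its probe set with the highest mean over the 10 arrays.

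CAF minus normal was fitted in R 4.3.3 by limma 3.58.1 (lmFit, eBayes), with group as the sole term and Benjamini-Hochberg adjustment over all genes. Errors beside differences are moderated standard errors. The script was tested on simulated data. The WNT genes, the pathway and marker lists and the naming rule were chosen with earlier results of these data known. Values on every array are given for WNT genes with an unadjusted p under 0.05, with no overlap or with a 2-fold difference, for the 3 brightest of each role and for Axin2, Lef1, Porcn, Lrp5 and Lrp6. Of each pathway list the 3 genes with the smallest p and the first in the other direction are named. Alternatives changed the scaling, the probe set, the filter, the prior, array weights, a block by replicate number, the label prefix and the arrays used. Testing every probe set singly was added after seeing the data and gives the values of dimmer probe sets.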

Additional observations from a re-analysis of the deposited data

Results flagged for a closer look

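In 2 genes a single normal array stood apart from the other 4. Axin2 read 7.52 on normal replicate 1, with the next normal array at 6.77, and the gap was 0.755 of the range. Wnt10b read 7.80 on normal replicate 2, with the next at 7.55 and a gap of 0.777 of the range. The critical value of Dixon's test for 5 arrays is 0.71. The test was run on 56 groups of values, and chance alone passes about 1 in 20 groups.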

How the results depend on the processing

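The Dkk2 difference stayed between 2.14 and 2.66, but its call did not hold throughout. Limma called 0 WNT genes after median centring (18 with an unadjusted p under 0.05 and a lowest adjusted p of 0.0603), with only genes at or above the median level (3; Dkk2 is filtered out), with array weights (14; 0.0501), with the label prefix as a term (4; 0.306), and against the ls (10; 0.107) or vs (10; 0.0521) normal arrays only. The prefix term and the ls comparison give the same differences, as all CAF arrays are ls. The exact permutation test called 0 (15; 0.111). Dkk2 had the smallest p this test can give, 0.00794, which is 0.111 after adjustment, so the test could not call it here. Leaving out 1 array gave 0 to 1. Over all genes, against 137, limma called 90 after quantile normalisation (41 higher, 49 lower), 16 after median centring, 235 with the probe set of highest SD, 50 among genes at or above the median level, 46 with a trended robust prior, 45 with array weights, 0 with the prefix term (2649 at an unadjusted p under 0.05), 1 against the ls arrays and 0 to 166 without 1 array. The exact permutation test called 0 (4070). Deviations of same-numbered arrays had correlations of -0.53 to 0.34, and those of other pairs -0.47 to 0.50. These values cannot tell whether the cultures were prepared in pairs. With the replicate block limma called 0 WNT genes (8 at an unadjusted p under 0.05; Dkk2 adjusted p 0.188) and 0 of all genes (3017).

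WNT genes with no overlap numbered 3 (6.12%, all genes 6.94%) with the mean of probe sets, 0 (all genes 6.74%) among genes at or above the median level, 14 (28.6%, all genes 32.6%) against the 2 ls arrays, 10 (20.4%, all genes 12.9%) against the 3 vs arrays and 5 to 8 without 1 array (all genes 7.85% to 12%), with 8 without normal replicate 2 or 4. Other pathway genes called were 0 to 1 without 1 array (Nlk without normal replicate 2). Among named WNT genes 24 values of 6 genes had the opposite sign, none of them called: Lef1 0.019 after quantile normalisation; Lrp5 0.16 with the prefix term and against the ls arrays, and -0.17 to 0.048 without 1 array; Lrp6 -0.10 after quantile normalisation, -0.048 after median centring, -0.17 against the vs arrays and -0.12 to 0.19 without 1 array; Rspo2 0.55 with the probe set of highest SD and 0.13 with the mean of probe sets; Rspo3 -0.28 against the vs arrays and -0.016 to 0.57 without 1 array; Sfrp1 -0.026 with the mean of probe sets, -0.62 against the vs arrays and -0.39 to 0.60 without 1 array. The cause was not tested.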

Other observations

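WNT genes outside the naming rule also held uneven arrays, and were picked with their values in view. Wnt10a, a ligand known from skin and teeth, read 8.23 and 8.25 on CAF replicates 3 and 5, against 6.97 to 7.05 on the other CAF arrays and 7.12 to 7.23 on normal arrays. Sfrp2, a WNT-binding protein, read 6.93 on CAF replicate 4 and 5.15 to 5.46 on the other CAF arrays, against 5.11 to 6.43 on normal arrays. Wnt2, a ligand of developing lung mesenchyme, read 6.91, 7.92, 7.45, 7.38 and 7.88 on CAF arrays, against 7.57, 6.62, 8.90, 8.02 and 7.90 on normal arrays, with normal replicate 2 the lowest of all 10. Fzd5 had 0.75 ± 0.41 by its brighter and -0.03 ± 0.11 by its dimmer probe set.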
